A study of Mus musculus with 4 samples.

Results

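Zic1, Zic2, Zic4, Zic5, Sall1, Sall2, Sall3, Sall4 and Osr1 are zinc finger transcription factors of embryonic patterning. They were chosen by gene symbol, and all 9 were among the 18042 genes of the deposited table. RNA-seq compared the dentate gyrus, the part of the hippocampal formation where granule neurons lie, of 2 mice in which Eed was conditionally knocked out (Eed cKO) and 2 wild-type (WT) mice. All mice were C57BL/6 at postnatal day 14. No source used here names the Cre driver, the deleted exons or the cells that carry the deletion. Eed is a core subunit of Polycomb repressive complex 2, and the comparison asks which transcripts depend on it.

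Polycomb repressive complex 2 methylates histone H3 at promoters rich in CG dinucleotides and keeps many developmental regulators silent outside their own lineage. Zic proteins bind DNA through zinc fingers related to those of the Gli factors of the Hedgehog pathway, and they act in the dorsal neural tube, cerebellar granule neurons and the meninges. Sall proteins are repressors that bring the NuRD histone deacetylase complex to DNA. Osr1 is a factor of intermediate mesoderm and of mesenchyme.

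The authors deposited group means, from which the whole read counts of the 4 libraries were recovered. The libraries are named Eed cKO A, Eed cKO B, WT A and WT B, since which title each belongs to is not known. They held between 17263273 and 17789587 counts, and the size factors that scale them ran from 0.996 to 1.01. Eed itself had 133 and 142 counts in Eed cKO A and B, against 251 and 301 in WT A and B. The Xist transcript of the inactive X chromosome reached 3809 counts in Eed cKO A, against 8 in Eed cKO B, 11 in WT A and 8 in WT B, which sets Eed cKO A apart as female-like. The choroid plexus transcript Ttr had 35706 and 23697 counts in Eed cKO A and B, against 33234 and 110 in WT A and B, which sets WT B apart. The dentate granule neuron markers were read in every library, at 5800 and 5191 summed counts in Eed cKO A and B, against 9105 and 11894 in WT A and B.

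Of the 8 members with enough reads to be tested, Zic2 rose, Osr1 fell and the other 6 did not pass. The test was limma on log2(normalized count + 1), where a normalized count is a count divided by the size factor of its library, with an adjusted p threshold of 0.05 over all genes tested. Among all 15020 genes tested, 6.44% passed, 3.54% as higher and 2.9% as lower. On the same reads edgeR called 6.65% (3.78% higher, 2.87% lower). DESeq2 called 6.75% (3.62% higher, 3.14% lower) of the 15944 genes to which it gave an adjusted p. The authors' deposited table calls 6.96% of 15043 genes, a share that leaves out 2999 genes with the largest possible adjusted p. An unadjusted limma p under 0.05 was reached by 4 of the 8 members and by 24.8% of all genes tested. The groups did not overlap in 4 of the 8 tested members, with Zic1, Zic2 and Sall1 higher and Osr1 lower in Eed cKO, and did not overlap in 56.8% of all genes tested (27.8% higher, 29% lower). The median log2 fold change of the 8 was 0.04, against -0.0032 for all genes tested. Sall4 was the member with too few reads to be tested.

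**Figure D1:**
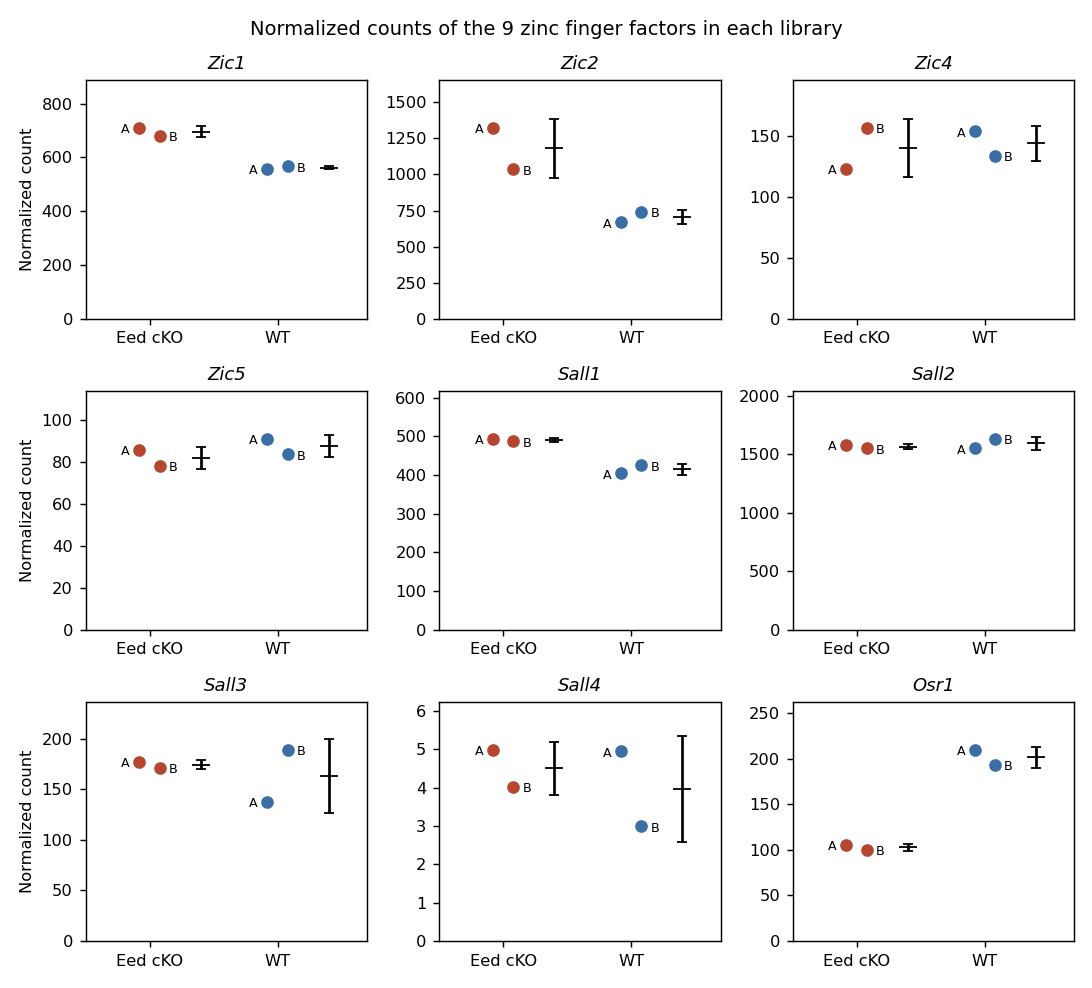
Normalized counts (vertical axis, from 0) of each member in Eed cKO (red) and WT (blue), with 1 point per library (A and B) and the group mean ± SD (n = 2) in black. Zic2 lies higher in both Eed cKO libraries than in both WT libraries, Osr1 lies lower in both, and Zic4, Zic5, Sall2, Sall3 and Sall4 overlap.

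The Zic genes stand in pairs. Zic1 (ENSMUSG00000032368; GRCm38 chromosome 9, 91358058 to 91365810, minus strand) and Zic4 (ENSMUSG00000036972; 91362413 to 91389348, plus strand) overlap over 3398 bases on opposite strands. Zic5 (ENSMUSG00000041703; chromosome 14, 122456795 to 122465677, minus strand) and Zic2 (ENSMUSG00000061524; 122475435 to 122479852, plus strand) point away from each other, 9.76 kb apart. All are protein coding in the GENCODE annotation. The annotated exons of Zic1 and Zic4 share 60 bases. Whether counting used the strand is not known, so reads in that part cannot be assigned to either gene.

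Zic coding sequences resemble each other most in the zinc fingers, which matters for telling their reads apart. The longest coding run identical between any pair was 42 bases, between Zic1 and Zic4, and Zic1 shared 35 bases with Zic2. The coding stretch that holds these runs is shown for the 4 Zic members, 60 bases each, with capitals where a base differs from Zic1.
Zic1: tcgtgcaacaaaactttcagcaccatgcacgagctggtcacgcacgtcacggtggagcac
Zic2: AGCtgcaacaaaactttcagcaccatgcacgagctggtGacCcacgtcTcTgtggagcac
Zic4: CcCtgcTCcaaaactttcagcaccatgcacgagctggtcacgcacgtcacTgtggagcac
Zic5: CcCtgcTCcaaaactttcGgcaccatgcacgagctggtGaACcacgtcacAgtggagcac
Zic2 differed from Zic1 at 7 of the 60 bases, Zic4 at 5 and Zic5 at 9. The stretch lies at chr9:91364238-91364297 (minus strand) in Zic1, chr14:122476486-122476545 (plus strand) in Zic2, chr9:91379141-91379200 (plus strand) in Zic4 and chr14:122464094-122464153 (minus strand) in Zic5. No window of 50 coding bases of any of the 9 members was found in another of them. The read length was not named in the sources used here.

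The promoters are shown for the neighbours Zic1 and Zic4, and for Zic5, the neighbour of Zic2. Polycomb complexes are known to occupy promoters rich in CG dinucleotides, but a CG count does not show occupancy, which was not measured. RefSeq promoters (GRCm38.p6, 250 bases before to 50 after the start) were matched for 5 of 9 members, Zic1, Zic4, Zic5, Sall1 and Sall2. Each CG is in capitals.
Zic1: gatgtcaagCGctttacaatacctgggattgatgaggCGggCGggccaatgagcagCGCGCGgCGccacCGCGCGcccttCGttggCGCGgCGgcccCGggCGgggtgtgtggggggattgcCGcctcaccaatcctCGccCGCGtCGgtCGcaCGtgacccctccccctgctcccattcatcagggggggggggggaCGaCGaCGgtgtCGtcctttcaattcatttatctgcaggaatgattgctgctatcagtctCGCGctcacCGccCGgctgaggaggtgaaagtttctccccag
Zic4: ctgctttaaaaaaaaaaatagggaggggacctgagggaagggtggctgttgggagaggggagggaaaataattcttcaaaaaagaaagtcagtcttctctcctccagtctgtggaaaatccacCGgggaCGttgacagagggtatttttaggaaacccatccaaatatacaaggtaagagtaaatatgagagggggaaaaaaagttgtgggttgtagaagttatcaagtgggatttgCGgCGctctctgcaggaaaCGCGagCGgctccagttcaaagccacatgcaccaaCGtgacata
Zic5: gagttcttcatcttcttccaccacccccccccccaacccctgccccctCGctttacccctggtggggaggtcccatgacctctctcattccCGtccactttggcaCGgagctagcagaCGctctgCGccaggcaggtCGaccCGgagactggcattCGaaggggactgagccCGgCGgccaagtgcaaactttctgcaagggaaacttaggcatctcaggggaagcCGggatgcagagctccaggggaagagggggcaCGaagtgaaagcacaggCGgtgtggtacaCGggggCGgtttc
These windows lie at chr9:91365719-91366018 (minus strand), chr9:91368722-91369021 (plus strand) and chr14:122465609-122465908 (minus strand). The Zic4 window lies inside the annotated span of Zic4, which begins at 91362413. It therefore does not cover the upstream end of that span. The motif CG reads the same on both strands and cannot overlap itself. The Zic1 window holds 31 CG, a number that 10.6% of the 32851 promoters of that length reach. The Zic5 window holds 15, which 34.6% reach, and the Zic4 window 8, which 48.6% reach. The median over all promoters was 7, and 94.6% hold at least 1 CG. The 3 windows of Sall1 hold 18, 27 and 39 CG, and the 2 of Sall2 hold 1 and 10.

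Zic2, a factor of forebrain midline formation and of retinal axon guidance, had 1329 and 1031 counts in Eed cKO A and B, against 676 and 742 in WT A and B. Both Eed cKO libraries lay above both WT libraries, and Eed cKO A lay above Eed cKO B. The 95% Poisson intervals of the Eed cKO libraries did not overlap each other, since that of Eed cKO A began at 1258 and that of Eed cKO B ended at 1096. These and the other intervals of counts and shares given here cover counting error only. Zic2 averaged 1180 ± 206 normalized counts in Eed cKO and 705 ± 49.3 in WT (SD, n = 2 each), a rise of 1.68-fold (limma, log2 fold change 0.73 ± 0.13 SE, adjusted p = 0.032). The call was kept in edgeR (adjusted p = 0.0281) and DESeq2 (adjusted p = 0.000107). The authors' deposited table gives Zic2 a log2 fold change of 0.74 and an adjusted p of 0.000115. The limma call was lost without Eed cKO A (log2 fold change 0.56, adjusted p = 0.142) and without Eed cKO B (0.91, adjusted p = 0.0748; kept in edgeR, 0.0382), and with no filter on low counts (adjusted p = 0.0723).

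Zic1, which with Zic4 shapes cerebellar development, had 713 and 679 counts in Eed cKO A and B, against 563 and 569 in WT A and B. Both Eed cKO libraries lay above both WT libraries, but Zic1 did not pass. It averaged 696 ± 21.1 normalized counts in Eed cKO and 562 ± 6.52 in WT (SD, n = 2 each; limma, log2 fold change 0.31 ± 0.08 SE, adjusted p = 0.0768). The 95% interval of its log2 fold change ran from 0.12 to 0.50, before any adjustment for the number of genes. Its log2 fold change was positive under all 15 alternatives, from 0.28 to 0.35, with an adjusted p between 0.0628 and 0.343, and none passed.

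Zic4 had 123 and 156 counts in Eed cKO A and B, against 155 and 134 in WT A and B. The groups overlapped, with the lowest and the highest library both Eed cKO. Its log2 fold change was -0.05, with a 95% interval from -0.48 to 0.39 (limma adjusted p = 0.898). Zic5, which acts in neural crest and the dorsal neural tube, had 86 and 78 counts in Eed cKO A and B, against 92 and 84 in WT A and B, and the groups overlapped too. Its log2 fold change was -0.09, with an interval from -0.52 to 0.33 (limma adjusted p = 0.784). On the linear scale the intervals ran from 0.716-fold to 1.31-fold for Zic4 and from 0.699-fold to 1.26-fold for Zic5. With 2 libraries a group, changes within these intervals were not excluded.

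Zic2 had 15.5 and 13.2 counts for each Zic5 count in Eed cKO A and B, against 7.35 and 8.83 in WT A and B. Zic1 had 5.80 and 4.35 counts for each Zic4 count in Eed cKO A and B, against 3.63 and 4.25 in WT A and B. The ratio of Zic2 to Zic5 was higher in each Eed cKO library than in either WT library, while for Zic1 to Zic4 the values of Eed cKO B and WT B lay too close to be told apart. With 2 libraries a group, an exact permutation test of such a ratio cannot reach the threshold, and none was run. The transcript 2610035F20Rik lies between Zic5 and Zic2 and ends 0.236 kb before the start of Zic2. It averaged 31.5 normalized counts in Eed cKO and 31.8 in WT (limma, log2 fold change -0.04 ± 0.30 SE, adjusted p = 0.952). The tested genes on the far sides of the pair, Clybl next to Zic5 and Pcca next to Zic2, had log2 fold changes of 0.20 and -0.09 (limma adjusted p = 0.255 and 0.598).

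The summed counts of the 4 Zic genes were 2251 and 1944 in Eed cKO A and B, against 1486 and 1529 in WT A and B. The lowest 95% Poisson bound of an Eed cKO sum was 1859, and the highest bound of a WT sum was 1608. Zic2 took 59.0% and 53.0% of them in Eed cKO A and B, against 45.5% and 48.5% in WT A and B. The 95% Wilson interval closest to WT, that of Eed cKO B, began at 50.8%, and that of WT B ended at 51.0%, so these 2 intervals just overlapped. Zic1 took 31.7% and 34.9% in Eed cKO A and B, against 37.9% and 37.2% in WT A and B. These are shares of reads, not of molecules, since the genes differ in length.

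**Figure D2:**
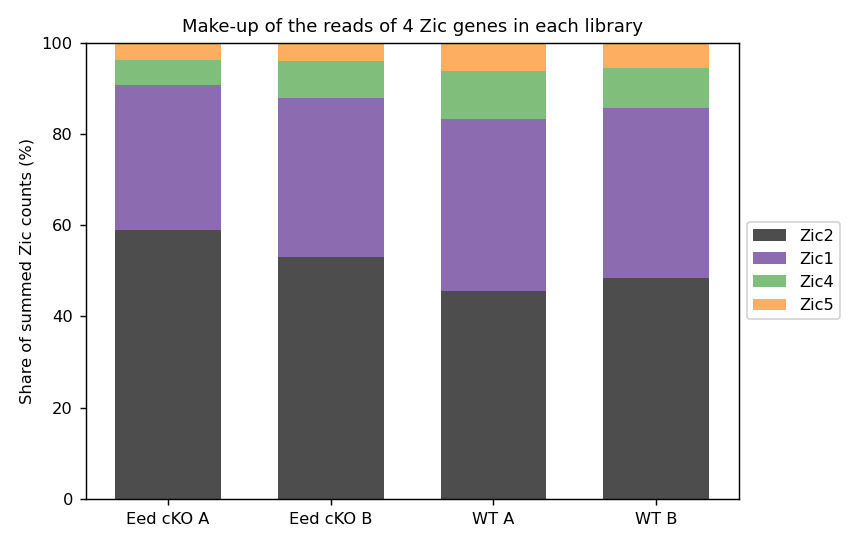
Share of the summed counts of Zic2, Zic1, Zic4 and Zic5 (vertical axis, %) in each library, as stacked bars that add to 100%. The Zic2 share lies between 53.0% and 59.0% in the Eed cKO libraries and between 45.5% and 48.5% in the WT libraries.

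None of 11 tested genes of the Hedgehog pathway, in which the Zic-related Gli factors act, passed in limma, edgeR or DESeq2, and their median log2 fold change was -0.08. Sufu, the negative regulator of Gli proteins, had the smallest p among them. It averaged 369 ± 26.0 normalized counts in Eed cKO and 499 ± 15.4 in WT (SD, n = 2 each; limma, log2 fold change -0.44 ± 0.10 SE, adjusted p = 0.0561). Without WT A, edgeR called 1 Hedgehog gene lower.

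No Sall gene passed. Sall2 (ENSMUSG00000049532; chromosome 14, 52311172 to 52328762, minus strand), a Sall factor of neurons, had the most reads of the members. It had 1587 and 1547 counts in Eed cKO A and B, against 1569 and 1641 in WT A and B. The WT libraries lay on either side of Eed cKO A, so the groups overlapped. Its log2 fold change was -0.02 ± 0.07 (SE), with a 95% interval from -0.19 to 0.14 (limma adjusted p = 0.857). On the linear scale the interval ran from 0.878-fold to 1.10-fold, the narrowest of the 8.

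Sall1 (ENSMUSG00000031665; chromosome 8, 89027235 to 89044162, minus strand), a factor of kidney development and of microglial identity, had 495 and 485 counts in Eed cKO A and B, against 408 and 426 in WT A and B. Both Eed cKO libraries lay above both WT libraries, without passing (limma, log2 fold change 0.24 ± 0.09 SE, adjusted p = 0.159). It averaged 490 ± 4.96 normalized counts in Eed cKO and 414 ± 14.3 in WT (SD, n = 2 each). The 95% interval of its log2 fold change ran from 0.03 to 0.45. The microglia markers summed to 10997 and 11235 counts in Eed cKO A and B, against 8868 and 11040 in WT A and B, and each of the 14 markers was read in every library. Sall1 had 45.0 and 43.2 counts per 1000 microglia marker counts in Eed cKO A and B, against 46.0 and 38.6 in WT A and B, and on this scale the groups overlapped. The overlap came from WT A, which had the lowest marker sum, while the WT B value lay below both Eed cKO values. Of the 14 tested markers, Trem2 rose (limma, log2 fold change 0.56 ± 0.11 SE, adjusted p = 0.0463) and 13 did not pass. The Trem2 call was kept in edgeR (adjusted p = 0.0428) but not in DESeq2 (adjusted p = 0.139). DESeq2 called Cx3cr1 higher instead (adjusted p = 0.0425, against a limma adjusted p of 0.105). In limma the Trem2 call was lost without WT A, without either Eed cKO library and with no filter, and 5 markers passed as higher without WT B. Without WT A, edgeR called 1 marker lower. The part of microglia in the Sall1 values was not tested.

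Sall3 (ENSMUSG00000024565; chromosome 18, 80966376 to 80986771, minus strand), which acts in olfactory bulb and retinal interneurons, had 178 and 171 counts in Eed cKO A and B, against 139 and 190 in WT A and B. The WT libraries lay on either side of both Eed cKO libraries. Its log2 fold change was 0.11 ± 0.18 (SE; limma adjusted p = 0.745), and it was -0.12 without WT A and 0.34 without WT B. Sall4 (ENSMUSG00000027547; chromosome 2, 168748332 to 168767943, minus strand), a pluripotency factor of embryonic stem cells, had 5 and 4 counts in Eed cKO A and B, against 5 and 3 in WT A and B. The 95% Poisson intervals of the 4 libraries all overlapped, from 0.619 at the lowest bound to 11.7 at the highest, so no difference was detectable at this depth.

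Genes known to act with Sall factors gave few calls. None of the 13 subunit genes of the NuRD complex passed in limma, edgeR or DESeq2, and their median log2 fold change was -0.15. Mta2, with the smallest p, averaged 1186 ± 17.5 normalized counts in Eed cKO and 1437 ± 59.3 in WT (SD, n = 2 each; limma, log2 fold change -0.28 ± 0.07 SE, adjusted p = 0.0761). Without WT A, limma called 1 NuRD gene lower and edgeR 2. The deposited table lists 5 of the 10 pluripotency genes named with Sall4. Of these only Esrrb had enough reads to be tested, with 80 and 68 counts in Eed cKO A and B, against 64 and 24 in WT A and B (limma adjusted p = 0.274). Without WT A, Esrrb passed as higher in limma and edgeR.

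Osr1 (ENSMUSG00000048387; chromosome 12, 9570116 to 9581500, plus strand, protein coding) was the member that fell. It had 106 and 100 counts in Eed cKO A and B, against 212 and 194 in WT A and B. Both Eed cKO libraries lay below both WT libraries, and the libraries of a group lay close together. Osr1 averaged 103 ± 3.80 normalized counts in Eed cKO and 202 ± 11.8 in WT (SD, n = 2 each), or 51.1% of the WT mean (limma, log2 fold change -0.96 ± 0.14 SE, adjusted p = 0.0185). edgeR (adjusted p = 0.0186) and DESeq2 (adjusted p = 0.00993) kept the call. The call was lost without Eed cKO A (limma adjusted p = 0.114, edgeR 0.0889) and without Eed cKO B (limma adjusted p = 0.141, edgeR 0.126), while the log2 fold change stayed between -1.02 and -0.90 under all 15 alternatives. In bulk tissue, fewer cells of a type and less RNA per cell cannot be told apart.

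**Figure D3:**
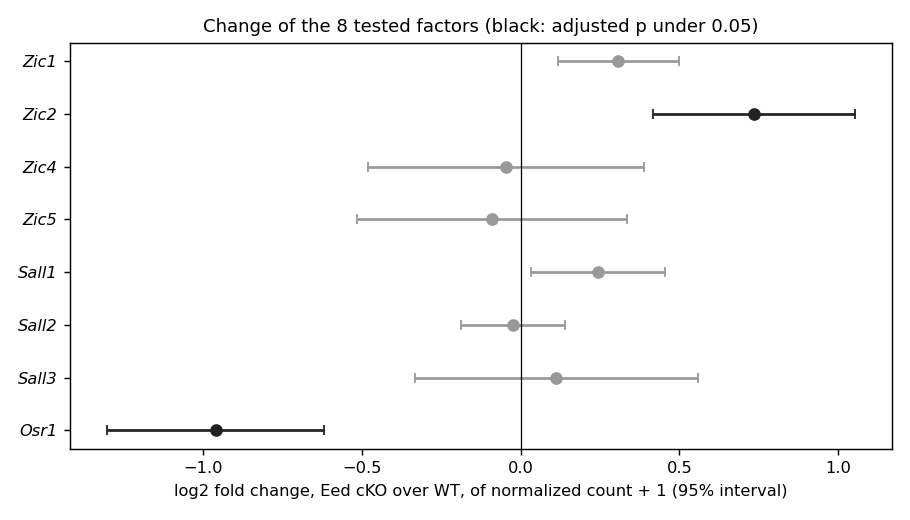
Log2 ratio of Eed cKO to WT (horizontal axis, normalized count + 1) for the 8 tested members, as the limma estimate with its 95% interval before adjustment over genes. Black marks Zic2 (0.73) and Osr1 (-0.96), which passed, and grey the 6 that did not.

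Meningeal fibroblasts, which are known to carry Osr1 and Zic1, could be present in dissected dentate gyrus. Of 14 meningeal fibroblast markers, all tested, 10 fell, Dcn rose and 3 did not pass, with a median log2 fold change of -1.24. The fibrillar collagen genes Col3a1 and Col1a2 fell to 32.2% and 39.6% of WT (limma adjusted p = 0.0049 and 0.00605), and the organic anion transporter Slc22a6 fell to 37.0% (adjusted p = 0.00798). Dcn, which encodes the proteoglycan decorin, had 1636 and 1649 counts in Eed cKO A and B, against 749 and 879 in WT A and B (limma, log2 fold change 1.03 ± 0.10 SE, adjusted p = 0.00798). No marker of the list was at 0 in any library, and their summed counts were 5701 and 5619 in Eed cKO A and B, against 8892 and 10881 in WT A and B. Without Eed cKO A, 0 of the 14 passed as lower in limma and 6 in edgeR, and without Eed cKO B, 1 did in limma and 5 in edgeR. With no filter 6 did in limma.

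Osr1 had 18.6 and 17.8 counts per 1000 meningeal marker counts in Eed cKO A and B, against 23.8 and 17.8 in WT A and B, and the groups overlapped on this scale. The scale depends on which markers carry the counts, since the sum includes Dcn, which rose, and 3 markers that did not pass. Dcn held 1636 and 1649 of the marker counts in Eed cKO A and B, against 749 and 879 in WT A and B. Zic1 had 125 and 121 per 1000 in Eed cKO A and B, against 63.3 and 52.3 in WT A and B. Zic2 had 233 and 183 in Eed cKO A and B, against 76.0 and 68.2 in WT A and B. Relative to these markers, both Zic genes were higher in each Eed cKO library than in either WT library. The marker sum itself was lower in Eed cKO, at 5701 and 5619 in A and B, against 8892 and 10881 in WT A and B. A gene with unchanged counts would thus also lie higher on this scale, so these ratios give no result about the Zic genes. The part of meningeal cells in the Osr1, Zic1 and Zic2 values was not tested.

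**Figure D4:**
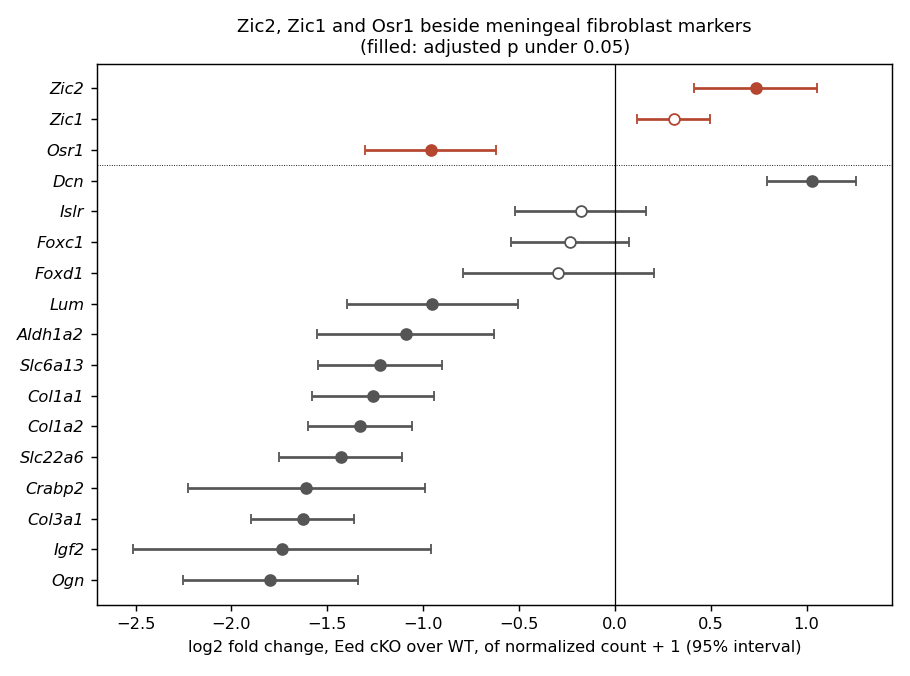
Log2 ratio of Eed cKO to WT (horizontal axis, normalized count + 1, with 95% intervals) for Zic2, Zic1 and Osr1 (red, above the dotted line) and for 14 meningeal fibroblast markers (grey), with filled points past an adjusted p of 0.05. Osr1 (-0.96) lies among the markers that fell, and Zic2 (0.73) lies on the side of Dcn (1.03).

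Markers of other cell types that carry Zic genes were also read, which does not show that those cells were present. The cerebellar granule neuron markers summed to 454 and 629 counts in Eed cKO A and B, against 154 and 342 in WT A and B. Cbln1 held 324 and 510 of these in Eed cKO A and B, against 114 and 287 in WT A and B. Gabra6, which defines cerebellar granule neurons, had 14 and 13 counts in Eed cKO A and B, against 1 and 8 in WT A and B, and did not pass (limma adjusted p = 0.216). Of 5 tested, the homeobox gene En2 rose, with 51 and 54 counts in Eed cKO A and B, against 6 and 3 in WT A and B (limma adjusted p = 0.013). The thalamic and habenular neuron markers summed to 4118 and 3832 counts in Eed cKO A and B, against 3344 and 3124 in WT A and B. Lhx9 alone held 1408 and 1192 of these in Eed cKO A and B, against 457 and 349 in WT A and B. Of 8 tested, the homeobox genes Lhx9 and Pou4f1 rose, Plekhg1 fell and 5 did not pass in limma. Among those 5, Prkcd stood at 53.7% of WT (limma adjusted p = 0.112), and DESeq2 called it lower (adjusted p = 0.00125). Pou4f1, a habenular factor, had 47 and 48 counts in Eed cKO A and B and none in WT, and Gbx2 had 2 and 6 in Eed cKO A and B and none in WT. Leaving out 1 Eed cKO library left 7 thalamic and 3 cerebellar markers to test. Pou4f1, En2 and Gabra6 dropped out, since both WT libraries had fewer than 10 normalized counts of each. The Pou4f1 and En2 calls were thus lost to the filter, which gives no result about them. Among the markers still tested, limma no longer called Lhx9 or Plekhg1, while edgeR called a thalamic marker higher. Without WT B, limma called 5 thalamic markers higher and 2 lower, and 3 cerebellar markers higher. With no filter Plekhg1 was lost, and with a filter of 50 normalized counts 1 thalamic marker was called higher. The part of these cell types in the Zic2 values was not tested.

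The choroid plexus markers summed to 37113 and 24597 counts in Eed cKO A and B, against 35201 and 368 in WT A and B. WT B, nearly without these reads, had 742 Zic2 counts, and WT A had 676. None of the 10 choroid plexus markers passed with all libraries in limma, edgeR or DESeq2, and 9 passed as higher without WT A. Without WT B the direction turned, with 1 called lower in limma and 2 in edgeR. The part of choroid plexus in the Zic2 values was not tested. The ependymal markers summed to 1069 and 841 counts in Eed cKO A and B, against 711 and 443 in WT A and B. Of 8 tested, the cilia gene Ccdc153 rose (limma, log2 fold change 1.62 ± 0.33 SE, adjusted p = 0.0465). In limma 5 passed as higher without WT A, and 0 passed without WT B, without either Eed cKO library, with no filter or with a filter of 50. DESeq2 called 3 higher.

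Among the other cell types, 4 of 8 astrocyte markers and 4 of 7 dentate granule neuron markers fell and none rose. Ntsr2, Gjb6 and Gja1 led the astrocyte markers, at 51.1%, 52.4% and 55.1% of WT. Lct, Prox1 and Dsp led the granule neuron markers, at 21.7%, 22.8% and 43.8% of WT. Of 8 interneuron markers Sst rose 1.77-fold and 7 did not pass, with 0 called with no filter, 4 without WT A and 2 in DESeq2. None of 9 vascular markers passed in limma or DESeq2, and edgeR called 1 lower, as did limma with a filter of 50. Without WT A limma called 2 lower. Pecam1, with the smallest p, stood at 72.3% of WT (limma adjusted p = 0.0528). Without either Eed cKO library, limma called none of the astrocyte or interneuron markers and 1 or 2 of the granule neuron markers.

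Among the nephrogenic mesenchyme factors, which act with Osr1 and Sall1 in the kidney, 1 of 5 tested rose and 4 did not pass. Eya1, a transcriptional coactivator of kidney and ear development, had 683 and 613 counts in Eed cKO A and B, against 419 and 475 in WT A and B (limma, log2 fold change 0.55 ± 0.10 SE, adjusted p = 0.0392). In limma the Eya1 call was lost without WT A, without either Eed cKO library and with no filter. Six2, a kidney progenitor factor, had 40 and 40 counts in Eed cKO A and B, against 11 and 17 in WT A and B, and did not pass in limma (adjusted p = 0.0533) or DESeq2 (adjusted p = 0.169), while edgeR called it higher (adjusted p = 0.0486). Osr2, the paralogue of Osr1, had too few reads to be tested, with 10 and 16 counts in Eed cKO A and B, against 2 and 5 in WT A and B. Osr2 lay higher in both Eed cKO libraries, where Osr1 lay lower, but these counts are few. The Poisson interval of Eed cKO A began at 4.80, below the ends of WT A (7.22) and WT B (11.7). That of Eed cKO B began at 9.15, above the end of WT A but not of WT B. DESeq2 did not call Osr2 (adjusted p = 0.507), so no contrast between Osr1 and Osr2 was drawn.

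Per kilobase of annotated exon, the order of the members differed between the groups. Zic2 stood highest in Eed cKO, at 460 and 359 normalized counts per kilobase in A and B, above Sall2 at 291 and 286. In WT, Sall2 stood highest, at 286 and 301 in A and B, above Zic2 at 233 and 257. Zic1 came next in Eed cKO, at 125 and 120, above Sall1 at 93.8 and 92.5 and Osr1 at 51.2 and 48.6. In WT, Osr1, at 102 and 93.6, could not be told apart from Zic1, at 98.0 and 99.6, and both lay above Sall1, at 76.8 and 80.6. Sall3, Zic5 and Zic4 averaged 23.3, 16.8 and 13.5 in Eed cKO and 21.9, 17.9 and 13.9 in WT. Sall3, at 23.7 and 22.9, lay above Zic5, at 17.5 and 16.0, in Eed cKO A and B, while in WT A and B the libraries of Sall3, at 18.4 and 25.3, overlapped those of Zic5, at 18.6 and 17.1. Sall4 was lowest, at 0.813 in Eed cKO and 0.717 in WT. The exon lengths join all annotated isoforms, 10.3 kb for Zic4 and 2.07 kb for Osr1, so a gene with long unused exons is understated.

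The genes whose profiles over the 4 libraries lay closest to those of a member were sought among the 12333 tested genes that averaged 50 or more normalized counts, by the distance between mean-centred log2 values. The 3 closest to Zic2 were Tfr2, Rbm20 and Efcab12, at distances of 0.0741, 0.0918 and 0.0964. The 3 closest to Osr1 were Cdh9, Hsd11b1 and Mcur1, at 0.0858, 0.0862 and 0.1, with log2 fold changes of -0.97, -0.91 and -0.88. The 3 closest to Sall2 were Polr2a, Rpl26 and BC005537, at 0.00993, 0.0117 and 0.0139. With 4 libraries, these are descriptions of likeness in depth-scaled counts and carry no test.

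**Figure D5:**
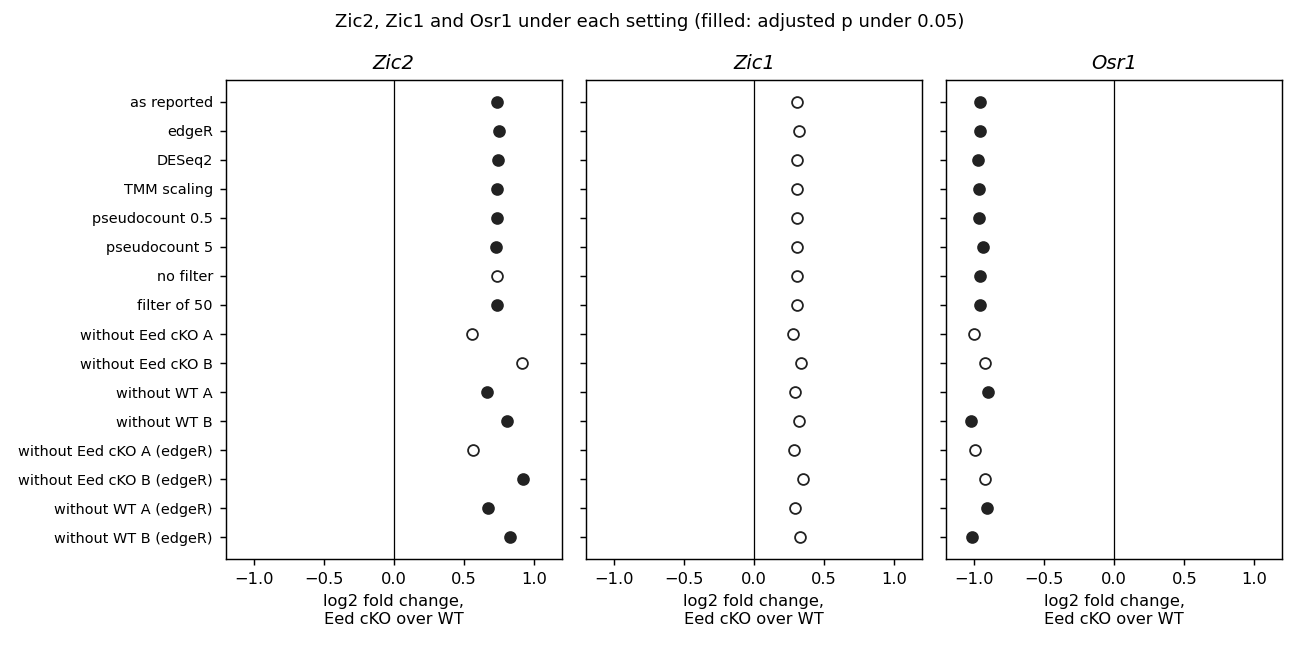
Log2 ratio of Eed cKO to WT (horizontal axis) of Zic2, Zic1 and Osr1 as reported and under each of 15 alternatives (rows), with filled points past an adjusted p of 0.05. Zic2 lies between 0.56 and 0.92 and passes in 11 of the 15, Osr1 lies between -1.02 and -0.90 and passes in 11, and Zic1 lies between 0.28 and 0.35 and passes in none.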

How the data were processed

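RNA-seq libraries were made from dentate gyrus RNA of 2 Eed cKO and 2 WT mice. The submitters' processing notes name HISAT2 2.1.0, DESeq2 1.2.0 and GRCm38, and no source used here gives the read counter, strand setting or annotation. The authors deposited a single table of normalized signal averaged by group, log2 fold changes and their standard errors, a Wald score, and raw and adjusted p-values, per the file headers. A group's signal averages 2 counts that were divided by size factors, so whole reads were recovered for 100% of genes (tolerance 1e-08). DESeq2 1.42.0 on these reads gave the authors' deposited log2 fold changes to within 6.76e-05.

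The main test was limma-trend (limma 3.58.1) on log2(normalized count + 1), over the 15020 genes that reached 10 normalized counts in 2 or more libraries, with Benjamini-Hochberg adjustment and genotype as the only term. This scale understates the change of low genes. edgeR 4.0.16, DESeq2, other scaling, pseudocounts and filters, and leaving out each library were the alternatives. The fits were tested on simulated data. Gene spans and exon lengths come from GENCODE M21. Besides the members, the genes named were Eed, up to 3 called genes of each list (otherwise the 1 with the smallest p), the 3 genes nearest in profile to Zic2, Sall2 and Osr1, and Xist and Ttr, while 1 list is not reported here. Dcn, Six2, Osr2, Gabra6, Gbx2, Cbln1, Prkcd, Cx3cr1 and the flanking genes were chosen after the data were seen. The members and lists were chosen with earlier results of these data known. The design text calls the replicates biological.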

Additional observations from a re-analysis of the deposited data

How the results depend on the processing

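The directions of Zic1, Zic2, Zic5, Sall1 and Osr1 held under all 15 alternatives. With no filter on low counts, 0 members were called higher (Zic2 was lost), and 271 genes were called higher and 202 lower, against 532 and 435 as reported. Leaving out 1 library in turn gave between 0 and 1 member called higher and between 0 and 1 called lower, with both calls lost in limma without either Eed cKO library. In edgeR, a choice added after seeing the data, Osr1 was lost without either and Zic2 without Eed cKO A alone. Over all genes, limma called between 0 and 858 higher and between 7 and 640 lower, and edgeR between 83 and 910 higher and between 63 and 813 lower, with the lowest counts without an Eed cKO library. The log2 fold change changed sign in members that never passed, and ran from -0.22 to 0.14 for Zic4, from -0.062 to 0.023 for Sall2 and from -0.12 to 0.35 for Sall3. Fits that leave out 1 library assume that the lone library of its group varies like the others. The cause of these changes was not tested. No paired analysis was possible because the recovered libraries carry no replicate number, so the replicate block could not be fitted. With 2 libraries a group, precision rests on 4 animals, and Eed cKO holds 1 female-like library.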
